A study of Mus musculus with 40 samples.

Results

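The genes described here are 40 markers of macrophages, dendritic cells and other myeloid leukocytes, read in the kidneys of mice given the dioxin TCDD (2,3,7,8-tetrachlorodibenzo-p-dioxin), which binds the aryl hydrocarbon receptor and is cleared slowly. They were taken as a list of symbols and matched to Ensembl gene identifiers. All 40 were among the 55359 identifiers in the count files, and 39 passed the filter on low counts that left 17345 genes for testing. Trem2, a lipid receptor of macrophages, was the member left out, with 0 to 21 counts per library.

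The mice were male C57BL/6, and bulk RNA of the right kidney gave 8 groups with 5 libraries each. The control group received the sesame oil vehicle alone (dose 0), and the other groups received TCDD in sesame oil at 0.03, 0.1, 0.3, 1, 3, 10 or 30 µg/kg. Each group was gavaged at intervals of 4 days over 28 days (age 30 days at the start and 58 at the end), so handling and oil are common to all groups and no group was left without gavage. The comparisons ask at which dose the myeloid transcripts of the kidney differ from vehicle and from the next lower dose. The labels do not say that libraries of a group came from separate mice, so the p-values measure the spread between these libraries.

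Resident macrophages and dendritic cells lie between the tubules and vessels of the kidney. They take up debris and immune complexes through Fc and complement receptors, kill microbes with the phagocyte oxidase, and depend on the growth factor receptor encoded by Csf1r. Many of their genes carry sites for the transcription factors PU.1 (encoded by Spi1) and IRF8, which direct myeloid development. In whole-tissue RNA, a change in the number of cells of a type and a change in RNA per cell cannot be told apart.

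Gene counts summed to 15278423 to 25575317 per library. The markers of the labelled tissue were present: the summed level of 6 tubule genes was at least 10210 CPM (counts scaled to library size with TMM factors) in each library. Vehicle replicates 1 and 2 and 30 µg/kg replicate 3 stood apart on the second component over all tested genes, at -28.4, -27.9 and -41.7, whereas the other 37 libraries lay at -9.7 or above. Counts against vehicle are therefore also given without those libraries, a comparison chosen after the data had been seen.

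Promoter sequence was looked at because many members moved together. RefSeq promoters on GRCm38.p6 were at hand for 31 of the 40 members, as 38 windows of the 250 bases before a start site. An interferon-response-type motif, GAAA followed after 2 free bases by a second GAAA, on either strand, was found in 4 of the 38 member windows (10.5%) and in 2.98% of all 32851 windows. The PU.1-type motif GAGGAAGT was found in 1 member window, that of C1qc, and in 2.44% of all windows. The core motif of the aryl hydrocarbon receptor, GCGTG, was found in 5 member windows, those of Fcer1g, Fcgr3, Itgax and Trem2, which is 13.2% against 28.2% of all windows. A match describes the letters in these windows and shows no binding. The windows of Ctss, a member called at 1 µg/kg, of Cybb, which holds 3 matches, and of C1qc are printed 5′ to 3′ on the gene's strand, with the matches to the paired GAAA motif or to GAGGAAGT in capitals:
Ctss, chr3:95526536-95526785 (+): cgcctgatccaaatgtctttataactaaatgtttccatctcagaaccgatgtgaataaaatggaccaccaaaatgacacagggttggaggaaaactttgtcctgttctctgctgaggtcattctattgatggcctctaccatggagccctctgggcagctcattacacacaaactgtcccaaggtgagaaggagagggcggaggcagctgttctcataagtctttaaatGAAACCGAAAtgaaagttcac
Cybb, chrX:9469325-9469574 (-): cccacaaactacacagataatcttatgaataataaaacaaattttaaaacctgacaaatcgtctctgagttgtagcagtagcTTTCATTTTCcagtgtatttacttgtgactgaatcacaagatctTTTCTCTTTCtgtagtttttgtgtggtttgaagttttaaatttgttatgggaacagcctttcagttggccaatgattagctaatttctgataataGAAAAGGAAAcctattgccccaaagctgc
C1qc, chr4:136892915-136893164 (-): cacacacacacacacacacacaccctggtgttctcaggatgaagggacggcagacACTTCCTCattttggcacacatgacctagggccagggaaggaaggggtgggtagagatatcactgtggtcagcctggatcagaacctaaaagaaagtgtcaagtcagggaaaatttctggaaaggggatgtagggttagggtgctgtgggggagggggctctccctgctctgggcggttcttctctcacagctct
The match in Ctss lies 21 to 12 bases before the start. Those in Cybb lie 168 to 159, 124 to 115 and 29 to 20 bases before it, and the match in C1qc lies 195 to 188 bases before it. The other members with the paired GAAA motif were Aif1 and Ncf1.

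Members were called higher from 1 µg/kg upward, most of them at 10 and 30 µg/kg, and none was called lower at any dose in the edgeR fit of all 40 libraries without a covariate, where the shares of all genes called lower were 0.00577%, 0.0634%, 0.997% and 7.55% at 1, 3, 10 and 30 µg/kg. A gene was called when its adjusted p (edgeR's quasi-likelihood test, Benjamini-Hochberg over all genes) was under 0.05. At 1 µg/kg, 8 of 39 tested members were called higher, where 0.507% of all tested genes were. At 3 µg/kg the count was 19, against 1.03% of all genes. At 10 µg/kg it was 28, against 3.82%, and at 30 µg/kg it was again 28, against 8.39%. The median log2 fold change over the members was 0.70, 0.79, 1.19 and 0.92 at these doses, while the median over all genes was near 0.

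At the lower doses no member was called with edgeR or DESeq2. The shares of all genes called higher were 0% at 0.03 µg/kg, 0% at 0.1 µg/kg and 0.00577% at 0.3 µg/kg, and 3, 3 and 4 members had an unadjusted p under 0.05. The member medians there were 0.09, 0.05 and 0.09 on the log2 scale. Replicate 1 at 0.1 µg/kg had 21 of 39 members above the highest vehicle library, against 4 to 7 in the other 4 libraries at that dose. Its median member lay at 0.40 on the log2 scale relative to the vehicle mean, against -0.14 to 0.03 in those 4 libraries. Shares of all genes are not given for these counts or for those at an unadjusted p. Members also tended to vary together between libraries, so they are not independent observations.

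**Figure D1:**
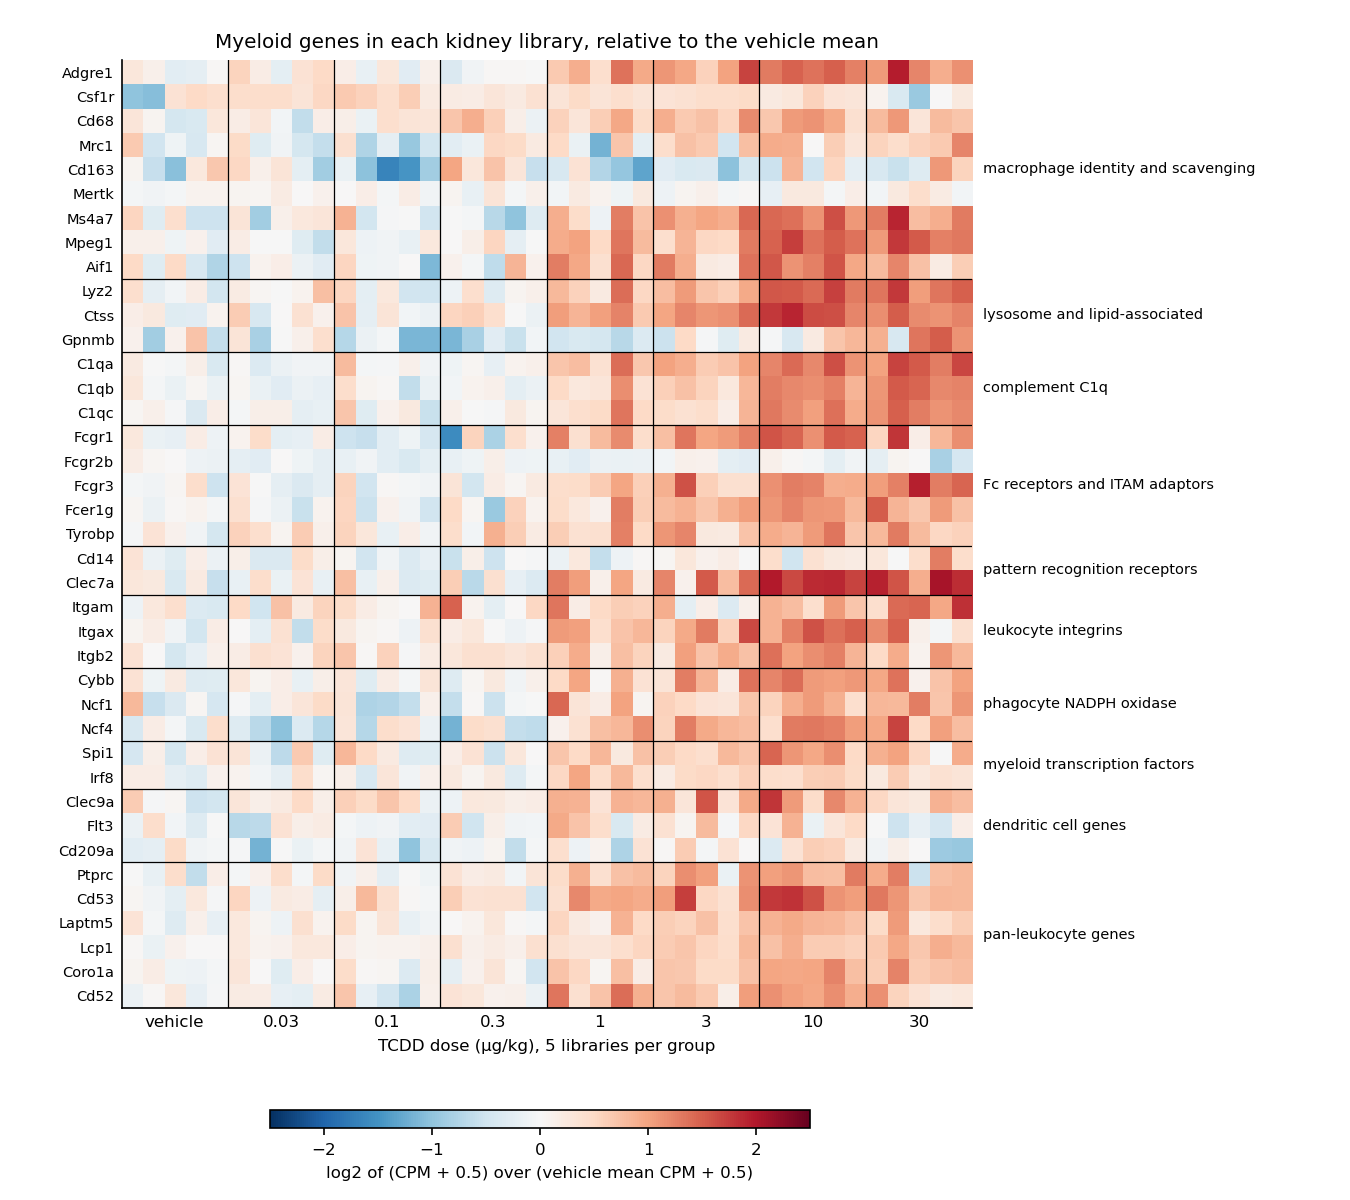
Each row is 1 of the 39 tested members, grouped by role, and each column is 1 library, in order of dose from vehicle to 30 µg/kg (5 libraries per group). Colour gives the log2 ratio of CPM + 0.5 to the vehicle mean + 0.5. Red fills most rows from 1 µg/kg on, while Csf1r, Mertk and Fcgr2b stay pale and Csf1r is blue in vehicle replicates 1 and 2 and in 30 µg/kg replicate 3.

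Separation from vehicle covered the most members at 10 µg/kg and fewer at 30 µg/kg, where the number called was unchanged. All 5 treated libraries lay above all 5 vehicle libraries for 15 members at 1 µg/kg, 17 at 3 µg/kg, 27 at 10 µg/kg and 19 at 30 µg/kg. Over all tested genes the shares were 1.19%, 1.67%, 4.32% and 3.59%. Library medians over the members ran from -0.08 to 0.13 in vehicle, 0.35 to 0.88 at 1 µg/kg, 0.40 to 0.80 at 3 µg/kg, 0.85 to 1.12 at 10 µg/kg and 0.58 to 1.10 at 30 µg/kg, as log2 over the vehicle mean. The ranges at 1 µg/kg and above do not overlap that of vehicle. In a fit of a straight line over the dose ranks 0 to 7, 33 of 39 members had a positive slope past the threshold, against 11% of all genes, and none a negative one, against 8.84%.

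Neighbouring doses share no vehicle library. Between 0.3 and 1 µg/kg, 4 members rose (Adgre1, C1qa, Mpeg1 and Irf8), where 0.213% of all genes did. At an unadjusted p under 0.05 there were 26 members, a count given without its share of all genes. The member median of that step was 0.60 on the log2 scale. The count of 4 called members fell to 0 without 1 µg/kg replicate 4 and to 2 without 0.3 µg/kg replicate 4 or 5. Between 1 and 3 µg/kg no member was called by edgeR or DESeq2, 1 had an unadjusted p under 0.05, and 0.0115% of all genes were called higher. Between 3 and 10 µg/kg only Mpeg1, a pore-forming protein of phagocytes, was called (log2 fold change 0.75 ± 0.16 (SE), adjusted p = 0.0403, edgeR), against 0.0922% of all genes called higher and 0.0173% called lower. That call was lost in 8 of the 10 fits that left out 1 library.

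Between 10 and 30 µg/kg no member was called by edgeR or DESeq2, against 1.19% of all genes called higher and 1.52% called lower. Of the 39 members, 27 had a lower mean at 30 than at 10 µg/kg, a count given without its share of all genes. At an unadjusted p under 0.05 there were 9 members, again without that share, all with a lower value at 30. These were the dendritic cell genes Clec9a, Cd209a and Flt3, the integrin chains Itgax and Itgb2, the protease gene Ctss, the leukocyte genes Cd53 and Cd52, and Csf1r. Their log2 differences ran from -0.40 for Ctss to -0.93 for Flt3, with adjusted p of 0.20 or more. Without 30 µg/kg replicate 1 or replicate 2, 1 member was called lower. C1qa, C1qb, C1qc, Fcgr3 and Lcp1 were among the members with a higher mean at 30 µg/kg.

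Macrophage surface and identity genes differed in whether they were called. Of 9 such members, 2 were called higher at 1 µg/kg (Adgre1 and Mpeg1), 5 at 10 µg/kg and 4 at 30 µg/kg. Adgre1 encodes F4/80, a standard surface marker of mouse macrophages. Its level was 3.98, 3.50, 2.55, 2.63 and 3.23 CPM in the vehicle libraries. It was 5.26, 6.43, 4.45, 8.96 and 6.60 CPM at 1 µg/kg, 8.59, 9.65, 8.90, 9.89 and 8.35 CPM at 10 µg/kg, and 7.21, 13.8, 8.07, 6.40 and 7.56 CPM at 30 µg/kg. Every library at those 3 doses lay above every vehicle library. The fitted log2 change over vehicle was 1.00 ± 0.21 (SE) at 1 µg/kg, 1.51 ± 0.21 at 10 µg/kg and 1.44 ± 0.21 at 30 µg/kg (adjusted p = 0.00747, 1.54e-06 and 2.68e-06, edgeR).

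Cd68, a lysosomal membrane protein of macrophages, was 3.57, 2.99, 1.94, 2.04 and 3.51 CPM in vehicle libraries and 4.42, 3.59, 4.57, 5.99 and 4.05 CPM at 1 µg/kg. It was 4.78, 6.39, 6.74, 5.88 and 3.88 CPM at 10 µg/kg and 5.23, 6.56, 3.59, 5.22 and 4.89 CPM at 30 µg/kg. All treated libraries at these doses lay above the vehicle libraries, by a narrow margin in the lowest ones. Its log2 fold change was 0.98 ± 0.23 (SE) at 10 µg/kg and 0.86 ± 0.23 at 30 µg/kg (adjusted p = 0.00389 and 0.00577, edgeR). Fitted on vehicle and 30 µg/kg alone, the latter call was lost (adjusted p = 0.0508).

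Ms4a7, a tetraspanning membrane protein of macrophages, was low in vehicle, at 1.50, 0.608, 1.34, 0.460 and 0.453 CPM. It was 2.06, 1.39, 0.752, 2.85 and 1.74 CPM at 1 µg/kg, 3.23, 3.07, 2.49, 3.69 and 2.41 CPM at 10 µg/kg, and 2.84, 4.64, 1.83, 2.08 and 2.87 CPM at 30 µg/kg. Vehicle and 1 µg/kg overlap, whereas both higher doses lie above all vehicle libraries. On the log2 scale the difference from vehicle was 1.69 ± 0.39 (SE) at 30 µg/kg (adjusted p = 0.00166, edgeR). The call was lost with 1 stranded column alone, which holds about 49% of the stranded counts (adjusted p = 0.0708, edgeR). Aif1, which encodes the actin-binding protein IBA1, rose at 10 µg/kg (log2 fold change 1.64 ± 0.38) and had a value of 0.96 ± 0.38 at 30 µg/kg that did not pass (adjusted p = 0.00347 and 0.0810).

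Mrc1, the mannose receptor CD206, overlapped between all groups. It was 5.99, 2.48, 3.33, 2.63 and 3.80 CPM under vehicle, 5.36, 3.19, 1.32, 6.17 and 2.99 CPM at 1 µg/kg, 7.33, 7.25, 3.68, 5.88 and 4.62 CPM at 10 µg/kg, and 5.57, 5.15, 5.70, 6.01 and 9.17 CPM at 30 µg/kg. No single dose passed (log2 fold change 0.80 ± 0.31 (SE) at 30 µg/kg, adjusted p = 0.0738, edgeR), but the slope over the doses did (adjusted p = 0.00119). Cd163, a scavenger receptor for haemoglobin, had 0.33 ± 0.58 at 30 µg/kg (adjusted p = 0.772) at a mean of 1.07 ± 0.68 CPM (SD, n = 5) in vehicle, and 2 SE on either side ran from -0.82 to 1.49.

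Mertk, a receptor tyrosine kinase that mediates uptake of dying cells, differed little between groups. It was 52.3, 51.1, 52.0, 57.3 and 57.5 CPM under vehicle, 51.2, 63.3, 57.2, 50.2 and 63.7 CPM at 1 µg/kg, 46.6, 64.1, 63.7, 52.4 and 60.6 CPM at 10 µg/kg, and 51.3, 64.2, 73.7, 62.2 and 51.6 CPM at 30 µg/kg. The groups overlap throughout. Its log2 difference from vehicle at 30 µg/kg came to 0.16 ± 0.09, and the interval of 2 SE on either side ran from -0.02 to 0.35 (adjusted p = 0.256, edgeR).

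Csf1r, the receptor for colony-stimulating factor 1, had low values in few libraries. It was 29.7, 28.5, 76.8, 84.4 and 80.5 CPM under vehicle, 74.6, 83.9, 75.1, 80.9 and 75.5 CPM at 1 µg/kg, 70.6, 73.3, 89.3, 76.5 and 74.1 CPM at 10 µg/kg, and 63.8, 46.2, 31.3, 60.7 and 70.9 CPM at 30 µg/kg. Vehicle replicates 1 and 2 and 30 µg/kg replicate 3 were the lowest 3 of the 40 libraries, and they are the libraries that stood apart over all genes. With all libraries, the 30 µg/kg group differed from vehicle by a log2 fold change of -0.13 ± 0.20 (SE, adjusted p = 0.745, edgeR). Without those libraries it was -0.42 ± 0.10 (adjusted p = 0.00205), a call among the 5.57% of genes called lower in that fit. Csf1r then also passed as lower at 30 against 10 µg/kg (-0.35 ± 0.08, adjusted p = 0.0206), where 0.852% of genes did, and in the trend (slope -0.04 per dose rank, adjusted p = 0.0116), where 9.01% did. Leaving out vehicle replicates 1 and 2 in itself raises the vehicle mean of Csf1r, while 30 µg/kg replicate 2, at 46.2 CPM, was kept. These calls thus depend on which libraries were left out, and with all libraries Csf1r was called in no comparison.

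The genes whose log2 CPM was most like that of Csf1r over the 40 libraries were Serpina1f, Gltp, Mettl7a2, Slc22a19 and Fam107a, with Pearson's r of 0.94 to 0.95. These genes were picked by that measure after the values had been seen, and r rests in part on the low libraries, since it was 0.70 to 0.81 over the other 37. Slc22a19 encodes an organic anion transporter of the kidney. It stood at 19.1 and 17.6 CPM in vehicle replicates 1 and 2, 18.7 in 30 µg/kg replicate 3, 45.7 in 30 µg/kg replicate 2 and 73.8 to 170.1 CPM in the other 36 libraries. Serpina1f, a serpin, stood at 21.5, 30.3, 25.8 and 59.9 CPM in the same 4 libraries and at 118.8 to 215.4 CPM in the others. For the other 38 tested members, r with Csf1r ran from -0.31 to 0.18 with a median of -0.06, and without the 3 low libraries it ran from -0.51 (Lcp1) to 0.10 (Flt3) with a median of -0.29, below 0 for 35 of 38. The part of the libraries that stood apart in these correlations beyond the values given was not tested. In the annotation, 15.1% of the exonic bases of Csf1r are shared with Hmgxb3.

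**Figure D2:**
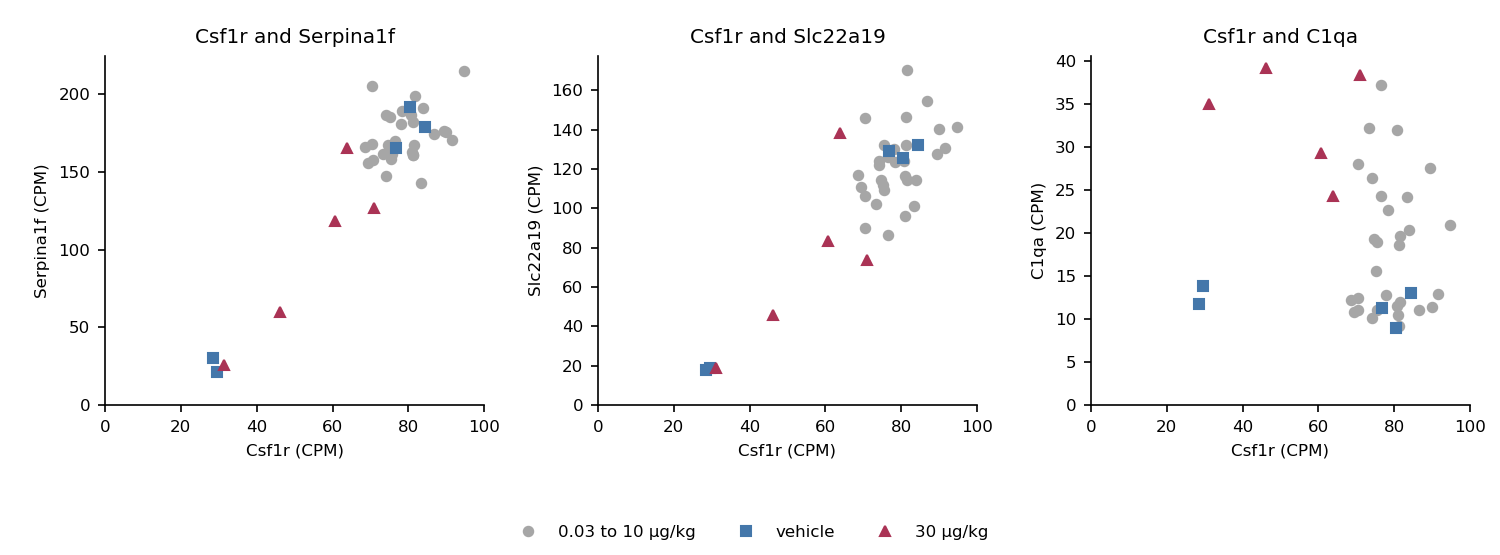
Each point is 1 of 40 libraries; the x axis is Csf1r in CPM and the y axes are Serpina1f, Slc22a19 and C1qa in CPM, with vehicle as squares, 30 µg/kg as triangles and all other doses as circles. The 2 vehicle libraries near 29 CPM of Csf1r and the 30 µg/kg library at 31.3 CPM are also lowest for Serpina1f and Slc22a19, whereas C1qa was 13.9 and 11.8 CPM in these vehicle libraries and 35.0 CPM in the 30 µg/kg library.

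Of 3 tested lysosomal genes, Lyz2 and Ctss were called higher at 10 and 30 µg/kg. Lyz2, lysozyme, was 24.2, 15.3, 17.2, 20.6 and 12.9 CPM in the vehicle group, and 31.9, 27.0, 21.2, 48.2 and 26.0 CPM at 1 µg/kg. It was 53.8, 53.0, 49.1, 60.0 and 45.1 CPM at 10 µg/kg and 46.4, 62.6, 38.0, 46.6 and 51.6 CPM at 30 µg/kg. The 1 µg/kg libraries overlap vehicle, and those at 10 and 30 µg/kg lie clear of it. Its fold change (log2) was 1.53 ± 0.21 (SE) at 10 µg/kg and 1.45 ± 0.21 at 30 µg/kg (adjusted p = 3.65e-06 and 6.05e-06, edgeR). Lyz1, a near relative with which reads could be shared, held 0 to 48 counts per library. Ctss, cathepsin S, which trims the invariant chain of MHC class II, was the member with the lowest p at 1 µg/kg (log2 fold change 1.02 ± 0.18, adjusted p = 0.0005). It reached 1.70 ± 0.18 at 10 µg/kg and 1.30 ± 0.18 at 30 µg/kg. Gpnmb, a lysosomal glycoprotein of lipid-laden macrophages, passed only in the trend. That call was lost without the 3 libraries that stood apart, and Gpnmb had 0 counts in 3 of 40 libraries. At 30 µg/kg it had 1.54 ± 0.62 (adjusted p = 0.0888, edgeR) from means of 0.605 CPM without TCDD and 1.75 CPM at 30 µg/kg.

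The C1q chains, which form the recognition unit of the classical complement pathway and are made largely by tissue macrophages, were all higher at 10 and 30 µg/kg. C1qa was 13.9, 11.8, 11.3, 13.0 and 8.95 CPM under vehicle, 19.3, 20.3, 15.5, 32.0 and 19.0 CPM at 1 µg/kg, 28.0, 32.2, 27.6, 37.2 and 26.4 CPM at 10 µg/kg, and 24.3, 39.1, 35.0, 29.2 and 38.4 CPM at 30 µg/kg. No treated library of these 3 doses overlaps vehicle. Its log2 fold change was 0.85 ± 0.16 (SE) at 1 µg/kg, 1.36 ± 0.16 at 10 µg/kg and 1.50 ± 0.16 at 30 µg/kg (adjusted p = 0.00182, 5.20e-08 and 3.34e-09, edgeR). C1qb and C1qc had 1.35 ± 0.15 and 1.29 ± 0.17 at 30 µg/kg.

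Activating Fc receptors and their signalling chains were called higher at 10 and 30 µg/kg, while the inhibitory Fc receptor was not. Fcer1g encodes the common γ chain of activating Fc receptors. It was 4.49, 3.90, 4.45, 4.67 and 4.19 CPM under vehicle, 6.19, 5.33, 4.70, 11.3 and 6.91 CPM at 1 µg/kg, 9.84, 10.9, 9.86, 9.73 and 8.00 CPM at 10 µg/kg, and 13.2, 8.20, 7.19, 9.60 and 7.56 CPM at 30 µg/kg. Every library at these doses exceeded the highest vehicle library, although 1 µg/kg was not called (adjusted p = 0.347). The estimated log2 difference was 1.16 ± 0.23 (SE) at 10 µg/kg and 1.08 ± 0.23 at 30 µg/kg (adjusted p = 0.000618 and 0.000708, edgeR). The activating receptors Fcgr3 and Fcgr1 had 1.59 ± 0.24 and 1.35 ± 0.40 at 30 µg/kg (adjusted p = 3.48e-06 and 0.0136).

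Tyrobp, the adaptor DAP12, was 2.88, 3.85, 3.20, 2.76 and 2.04 CPM in the vehicle group, and 4.77, 4.00, 4.07, 7.75 and 4.36 CPM at 1 µg/kg. It was 6.08, 5.67, 6.74, 8.20 and 5.11 CPM at 10 µg/kg and 5.51, 8.03, 5.42, 4.43 and 4.62 CPM at 30 µg/kg. Again the libraries at these listed doses lie above vehicle. The fitted log2 change was 1.10 ± 0.23 (SE) at 10 µg/kg and 0.92 ± 0.23 at 30 µg/kg (adjusted p = 0.00121 and 0.00402, edgeR).

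Fcgr2b, the inhibitory receptor, which liver sinusoidal endothelium also expresses, was 78.7, 71.4, 69.0, 63.1 and 62.3 CPM in vehicle. It was 60.8, 56.5, 62.4, 61.2 and 62.4 CPM at 1 µg/kg, 75.7, 70.7, 66.9, 57.9 and 65.2 CPM at 10 µg/kg, and 59.2, 72.3, 69.8, 38.9 and 51.3 CPM at 30 µg/kg. The groups overlap, with 1 vehicle library within the range at 1 µg/kg. At 30 µg/kg it had a log2 fold change of -0.24 ± 0.10, with an interval from -0.45 to -0.03 (adjusted p = 0.112, edgeR). It passed with a covariate for the 2 runs of sample numbers in the titles (-0.25, adjusted p = 0.0444), and without 30 µg/kg replicate 2 or 3.

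**Figure D3:**
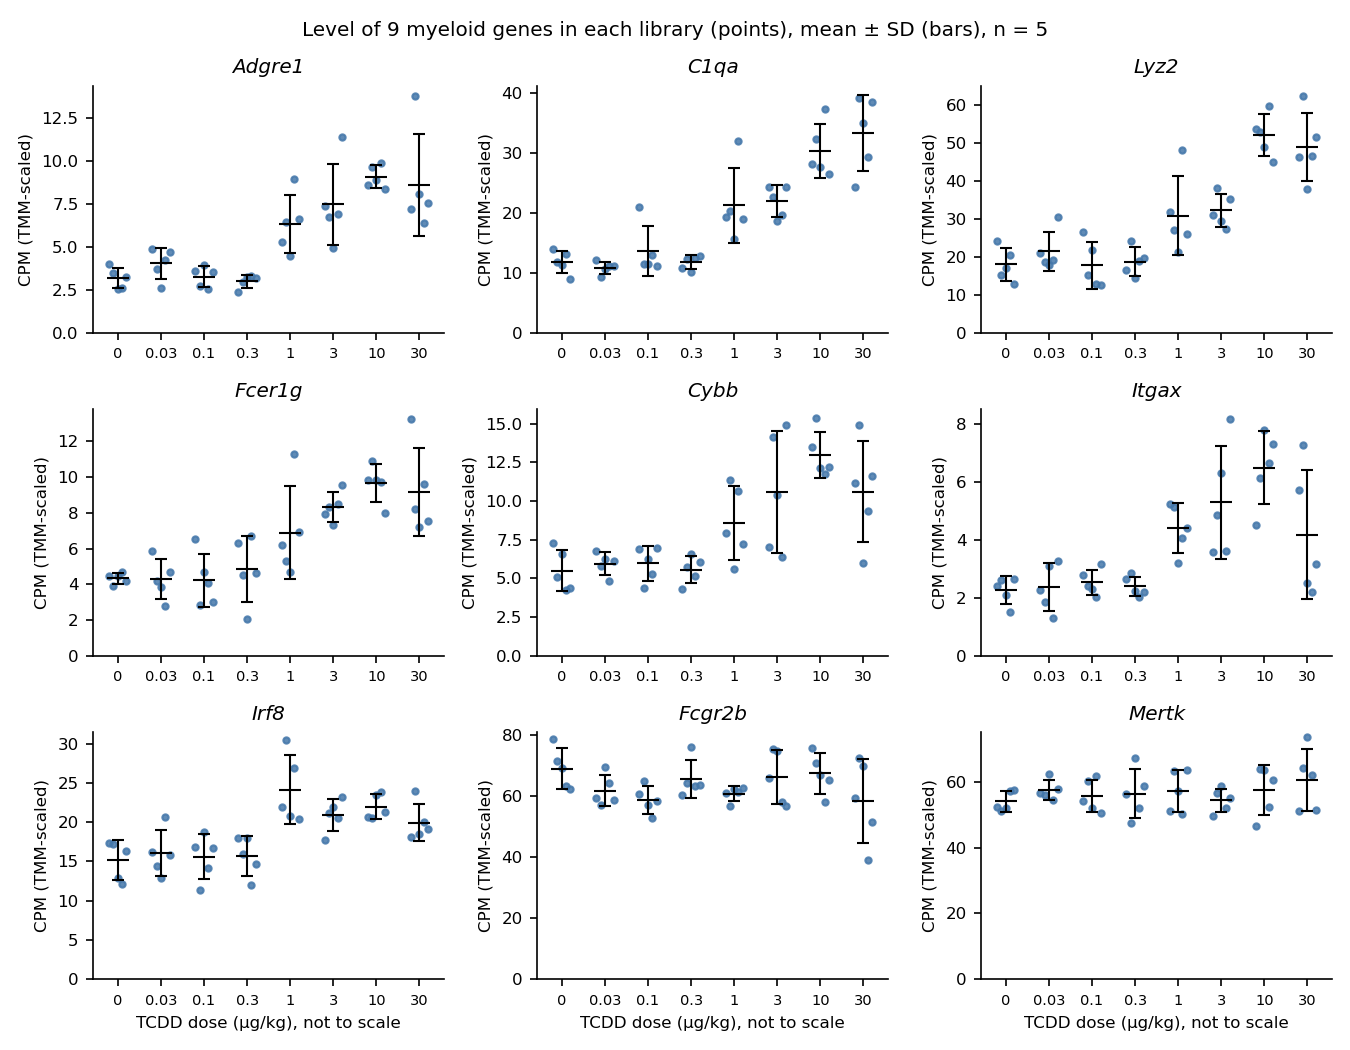
Points are libraries (5 per group), the y axes give CPM from 0, the x axes give the TCDD dose in order but not to scale, and bars are the mean ± SD. Adgre1, C1qa, Lyz2, Fcer1g, Cybb, Itgax and Irf8 are higher at 10 µg/kg than in vehicle in every library, and Fcgr2b and Mertk overlap between vehicle and 10 µg/kg.

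Clec7a, the β-glucan receptor dectin-1, had the highest fold change of the members at 10 µg/kg. It was 1.32, 1.27, 0.648, 1.25 and 0.510 CPM under vehicle, 3.15, 2.61, 1.13, 2.48 and 1.25 CPM at 1 µg/kg, 5.40, 4.18, 4.93, 5.02 and 4.37 CPM at 10 µg/kg, and 5.17, 3.96, 2.31, 5.78 and 4.89 CPM at 30 µg/kg. The libraries at 10 and 30 µg/kg lie above those of vehicle. The fitted log2 change over vehicle was 2.26 ± 0.36 (SE) and 2.15 ± 0.36 at these doses (adjusted p = 1.62e-05 and 2.09e-05, edgeR). Cd14, the co-receptor for bacterial lipopolysaccharide, passed at 30 µg/kg alone (0.62 ± 0.22, adjusted p = 0.0487), and that call was lost without the 3 libraries that stood apart.

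Among the leukocyte integrins, Itgax (CD11c, of dendritic cells and many kidney macrophages) was 2.42, 2.63, 2.12, 1.51 and 2.66 CPM in the vehicle group, and 5.26, 5.16, 3.20, 4.05 and 4.42 CPM at 1 µg/kg. It was 4.53, 6.15, 7.82, 6.67 and 7.32 CPM at 10 µg/kg and 5.74, 7.29, 2.51, 2.19 and 3.17 CPM at 30 µg/kg. At 10 µg/kg all libraries exceed vehicle, and at 30 µg/kg replicates 3 and 4 fall within the vehicle range. On the log2 scale the difference from vehicle was 1.51 ± 0.27 (SE) at 10 µg/kg and 0.88 ± 0.27 at 30 µg/kg (adjusted p = 0.000109 and 0.0197, edgeR). The call at 30 µg/kg was lost without 30 µg/kg replicate 1 (0.73), 30 µg/kg replicate 2 (0.58) or vehicle replicate 4 (0.77).

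Itgam (CD11b) was near the limit of detection. It was 0.231, 0.456, 0.561, 0.132 and 0.113 CPM under vehicle, 1.52, 0.406, 0.627, 0.726 and 0.685 CPM at 1 µg/kg, 0.965, 0.865, 0.567, 1.18 and 0.786 CPM at 10 µg/kg, and 0.568, 1.64, 1.70, 1.07 and 2.33 CPM at 30 µg/kg. The lowest library at 30 µg/kg lay just above the highest in vehicle. Its log2 fold change was 2.23 ± 0.57 at 30 µg/kg (adjusted p = 0.00445, edgeR). That value is uncertain, since 68.7% of the exonic bases of Itgam are shared with the gene model Gm49368 (0 to 3 counts per library). The call was also lost with 1 stranded column alone, which holds about 49% of the stranded counts (1.64, adjusted p = 0.158, edgeR). Itgb2, the shared β2 chain, had 1.27 ± 0.20 at 10 µg/kg and 0.82 ± 0.20 at 30 µg/kg.

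The phagocyte oxidase, which makes superoxide, was represented by its membrane subunit Cybb and the cytosolic subunits Ncf1 and Ncf4. All 3 were called at 30 µg/kg. Cybb was 7.26, 5.07, 6.57, 4.27 and 4.36 CPM under vehicle, 7.96, 11.3, 5.64, 10.7 and 7.22 CPM at 1 µg/kg, 13.5, 15.4, 12.1, 11.7 and 12.2 CPM at 10 µg/kg, and 11.2, 14.9, 5.97, 9.38 and 11.6 CPM at 30 µg/kg. Replicate 3 at 30 µg/kg is inside the vehicle range and the others are above it. Its fold change (log2) was 1.23 ± 0.21 (SE) at 10 µg/kg and 0.95 ± 0.21 at 30 µg/kg (adjusted p = 6.31e-05 and 0.00112, edgeR). Ncf1 and Ncf4 had 1.15 ± 0.31 and 1.40 ± 0.40 at 30 µg/kg.

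Both myeloid transcription factor genes were called higher at 10 and 30 µg/kg. Spi1 was 2.13, 3.44, 2.12, 3.48 and 4.02 CPM under vehicle, 5.21, 4.52, 5.76, 3.69 and 5.36 CPM at 1 µg/kg, 9.21, 7.11, 6.40, 7.41 and 4.47 CPM at 10 µg/kg, and 6.08, 6.62, 4.54, 3.03 and 6.19 CPM at 30 µg/kg. All 5 libraries at 10 µg/kg lie above the highest vehicle library, while at 1 and at 30 µg/kg 1 library lies inside the vehicle range. The estimated log2 difference was 1.19 ± 0.26 (SE) at 10 µg/kg and 0.81 ± 0.26 at 30 µg/kg (adjusted p = 0.00161 and 0.0250, edgeR). The call at 30 µg/kg was lost in 4 of the 10 fits without 1 library (0.70 to 0.74: without vehicle replicate 1 or 3, or 30 µg/kg replicate 2 or 5) and without the 3 libraries apart (0.78, adjusted p = 0.1055).

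Irf8, with Flt3, was 1 of 2 members whose highest group mean was at 1 µg/kg. It was 17.4, 17.2, 12.9, 12.1 and 16.3 CPM under vehicle, 21.9, 30.5, 20.8, 26.9 and 20.4 CPM at 1 µg/kg, 20.6, 20.5, 23.5, 23.8 and 21.3 CPM at 10 µg/kg, and 18.1, 23.9, 18.4, 20.0 and 19.1 CPM at 30 µg/kg. All libraries at these doses lie above vehicle. Its log2 fold change was 0.67 ± 0.13 (SE), 0.53 ± 0.13 and 0.39 ± 0.13 at 1, 10 and 30 µg/kg (adjusted p = 0.00391, 0.00900 and 0.0382, edgeR). The call at 30 µg/kg was lost in 5 of the 10 fits that left out 1 library (vehicle replicate 3 or 4, or 30 µg/kg replicate 2, 4 or 5). Irf8 was not called at 3 µg/kg against vehicle by edgeR. Nor was it called between 1 and 3, 3 and 10 or 10 and 30 µg/kg, and 1 µg/kg was not compared with 10 or 30 µg/kg.

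Of the 3 dendritic cell genes, 1 was called at 10 µg/kg. None of Clec9a, Flt3 and Cd209a was called at 30 µg/kg by edgeR, although 1 of them, Clec9a, had an unadjusted p under 0.05. Clec9a, a receptor of cross-presenting dendritic cells for damaged cells, rose at 10 µg/kg (1.38 ± 0.28 (SE), adjusted p = 0.000833). At 30 µg/kg it had 0.71 ± 0.28 (adjusted p = 0.0874), and without the 3 libraries apart it passed (1.15 ± 0.34, adjusted p = 0.0194, edgeR).

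Flt3, the receptor of the dendritic cell growth factor FLT3 ligand, was 0.576, 1.11, 0.648, 0.460 and 0.680 CPM in the vehicle group, and 1.82, 1.45, 1.13, 0.424 and 0.872 CPM at 1 µg/kg. It was 1.01, 1.68, 0.567, 0.981 and 1.18 CPM at 10 µg/kg and 0.682, 0.339, 0.542, 0.393 and 0.840 CPM at 30 µg/kg. Cd209a, a C-type lectin of monocyte-derived dendritic cells, was 1.15, 1.22, 2.29, 1.38 and 1.42 CPM under vehicle, 2.16, 1.33, 1.63, 0.666 and 2.06 CPM at 1 µg/kg, 1.06, 2.06, 2.55, 2.47 and 1.82 CPM at 10 µg/kg, and 1.36, 1.70, 1.49, 0.561 and 0.535 CPM at 30 µg/kg. Their groups overlap, and the intervals of 2 SE at 30 µg/kg ran from -1.19 to 0.58 for Flt3 and from -1.16 to 0.31 for Cd209a, which leaves room for a change in either direction.

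The pan-leukocyte genes were all called at 10 µg/kg (6 of 6) and all but Cd52 at 30 µg/kg. Ptprc encodes CD45, carried by nearly all leukocytes. It was 7.61, 6.74, 10.7, 4.87 and 8.67 CPM under vehicle, 10.8, 14.6, 10.4, 13.1 and 13.8 CPM at 1 µg/kg, 16.1, 17.2, 13.5, 13.4 and 19.8 CPM at 10 µg/kg, and 15.1, 19.4, 5.15, 13.2 and 13.9 CPM at 30 µg/kg. Of the doses listed, the library of lowest level at 1 µg/kg and that at 30 µg/kg, both replicate 3, lie inside the vehicle range. It had a log2 fold change of 1.05 ± 0.22 (SE) at 10 µg/kg and 0.79 ± 0.22 at 30 µg/kg (adjusted p = 0.00165 and 0.0108, edgeR). The latter call was lost without 30 µg/kg replicate 2 (0.62) and with vehicle and 30 µg/kg fitted alone (adjusted p = 0.139).

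Lcp1, the actin bundler L-plastin, had the smallest SE of the members called at 30 µg/kg. It was 23.6, 20.3, 24.9, 23.0 and 22.9 CPM under vehicle, 30.3, 28.3, 28.3, 30.9 and 33.6 CPM at 1 µg/kg, 38.3, 43.6, 36.1, 35.7 and 34.4 CPM at 10 µg/kg, and 36.4, 45.4, 36.8, 43.5 and 40.6 CPM at 30 µg/kg. No library at these listed doses reaches down to vehicle. The fitted log2 change was 0.40 ± 0.08 (SE), 0.71 ± 0.08 and 0.82 ± 0.08 at 1, 10 and 30 µg/kg (adjusted p = 0.00556, 3.56e-08 and 6.82e-10, edgeR). Coro1a, another actin regulator of leukocytes, had 0.85 ± 0.16 at 30 µg/kg, Laptm5 had 0.62 ± 0.14 and Cd53 had 1.15 ± 0.26.

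**Figure D4:**
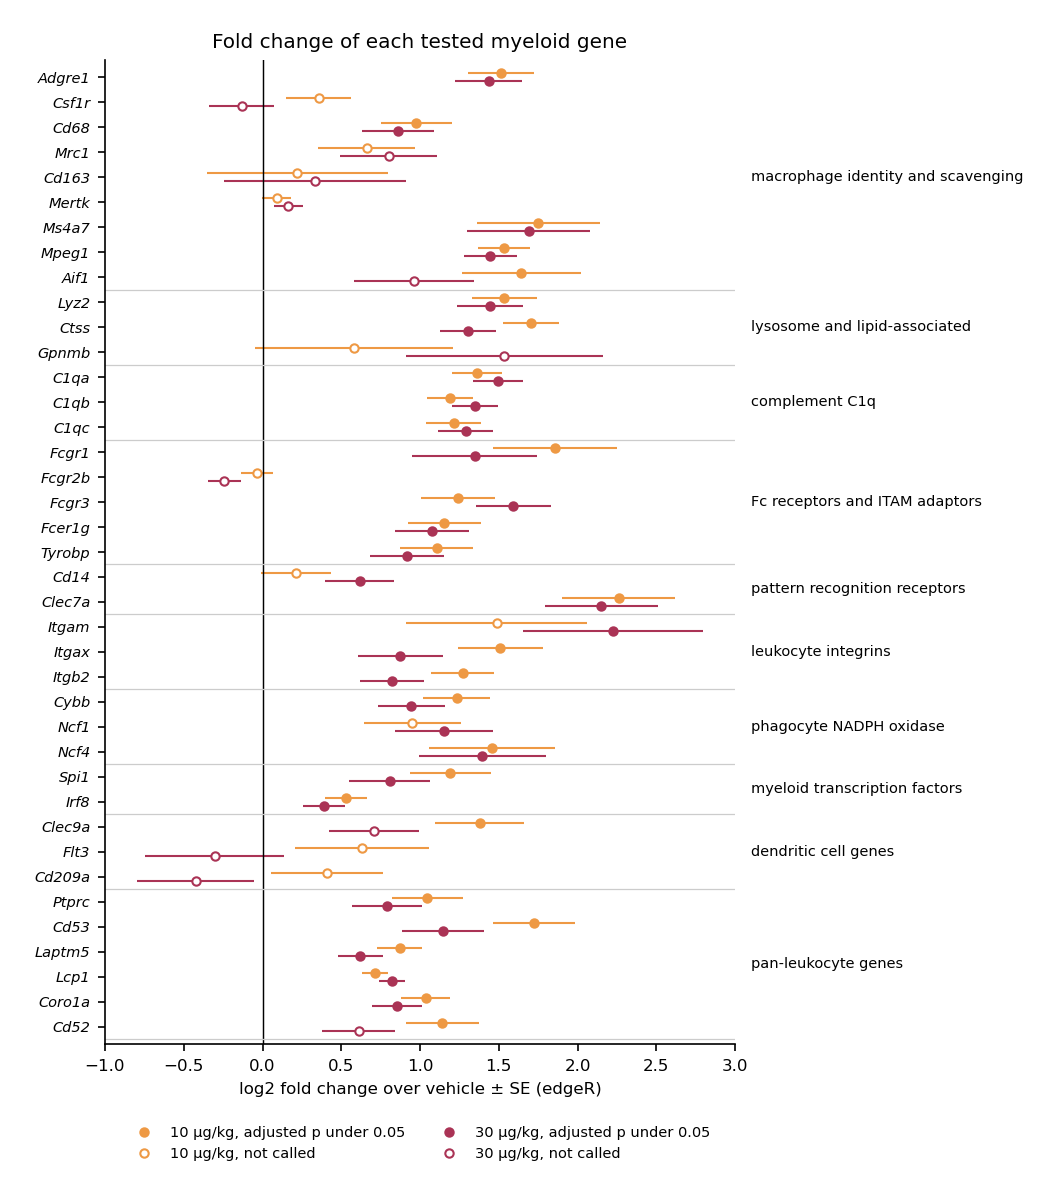
Points are the log2 fold change over vehicle of each tested member at 10 µg/kg (orange) and 30 µg/kg (red), bars are 1 SE from edgeR, and filled points passed an adjusted p of 0.05. Filled points all lie right of 0, and Fcgr2b, Cd209a, Flt3 and Csf1r lie left of it at 30 µg/kg.

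The lowest dose at which a member was called divides the set. At 1 µg/kg the called members were Adgre1, C1qa, Ctss, Mpeg1, Cd53, Lcp1, Irf8 and Cd52. A further 13 were first called at 3 µg/kg (Cd68, Lyz2, C1qb, Itgax, Fcgr3, Fcer1g, Laptm5, Ptprc, Cybb, Clec7a, Clec9a, Itgb2 and Coro1a), 7 at 10 µg/kg (C1qc, Aif1, Fcgr1, Tyrobp, Ms4a7, Ncf4 and Spi1) and 3 at 30 µg/kg (Cd14, Itgam and Ncf1). Csf1r, Mrc1, Fcgr2b, Flt3, Cd209a, Gpnmb, Mertk and Cd163 were not called at any dose. The calls at 10 and 30 µg/kg had 25 members in common. Without the 3 libraries that stood apart, 5 members were called higher at 1 µg/kg (0.351% of all genes), 15 at 3 µg/kg (0.673%), 28 at 10 µg/kg (2.66%) and 27 at 30 µg/kg (5.78%), where Csf1r was also called lower. The first count thus moved by more than 1.5 times, with Cd52, Cd53 and Lcp1 lost. Leaving out 3 µg/kg replicate 5 alone took the count at 3 µg/kg to 8, and leaving out 1 µg/kg replicate 4 took that at 1 µg/kg to 5. The count at 3 µg/kg was also lower without vehicle replicate 3 (11) or 3 µg/kg replicate 2 (12).

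Members differed in level. Per kilobase of exon, the vehicle means were highest for Lyz2 (13.7 ± 3.4 CPM per kb, SD), Mertk (12.5 ± 0.71), C1qb (12.4 ± 1.7), Fcgr2b (11.9 ± 1.2), C1qa (11.3 ± 1.8) and Csf1r (10.4 ± 4.9), which do not differ beyond their spread. Ctss followed at 5.83 ± 1.1 and Fcer1g at 4.97 ± 0.34, and the lowest were Itgam at 0.059 ± 0.040 and Trem2 at 0.016 ± 0.037. At 30 µg/kg the same scale gave 37.3 ± 6.9 for Lyz2, 31.9 ± 6.1 for C1qa, 31.6 ± 4.0 for C1qb and 14.0 ± 2.2 for Mertk. Of these 6 highest members in vehicle, Mertk, Fcgr2b and Csf1r were not called at any dose.

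After group means were removed, each member's log2 CPM was set against the median of the other members over the 40 libraries, as a description. The correlation was highest for C1qb and Laptm5 (r = 0.79 each), Lyz2 and Ms4a7 (0.72 each), and exceeded 0.5 for 13 of 39 members. At the low end were Csf1r (-0.13), Gpnmb (-0.14), Flt3 (-0.15) and Mertk (-0.22). Libraries within a dose group thus tended to be high or low for many of the macrophage genes at once, as in 1 µg/kg replicate 4, which was highest of its group for Adgre1, Cd68, C1qa, Mrc1, Lyz2, Fcer1g, Tyrobp and Ms4a7. The spread between libraries of a group was larger for the members than for genes in general, with a median biological coefficient of variation of 23.3% against 16.1%. That comparison was not matched for level. The highest member value was 59.2% for Gpnmb (0.605 CPM in vehicle) and the lowest 8.97% for Lcp1 (22.9 CPM in vehicle).

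Relative to Ptprc, the mean differences from vehicle were unequal between members. The log2 ratio to Ptprc was higher at 30 µg/kg than in vehicle by 1.46 for Clec7a, 0.88 for Fcgr3, 0.77 for C1qa, 0.74 for Lyz2 and 0.68 for Adgre1. It differed by 0.03 for Itgax and 0.10 for Lcp1, and by -0.32 for Irf8, -0.57 for Mertk, -0.75 for Csf1r and -0.99 for Fcgr2b. Several of these values rest on 30 µg/kg replicate 3, where Ptprc was low. Without that library the differences were 1.37 for Clec7a, 0.42 for Fcgr3, 0.43 for C1qa, 0.51 for Lyz2, 0.38 for Adgre1, -0.14 for Itgax, -0.18 for Lcp1, -0.61 for Irf8, -0.95 for Mertk, -0.88 for Csf1r and -1.38 for Fcgr2b. The Csf1r difference was -0.43 without vehicle replicate 4, and that of Irf8 was -0.50 without vehicle replicate 3 and -0.21 without 30 µg/kg replicate 1. The small differences of Itgax and Lcp1 ran from -0.14 to 0.25 and from -0.18 to 0.26 when 1 library was left out, an alternative chosen after the data were seen. At 10 µg/kg the differences from vehicle were 1.27 for Clec7a, 0.19 for Fcgr3, 0.28 for C1qa, 0.47 for Lyz2, 0.44 for Adgre1, 0.44 for Itgax, -0.38 for Lcp1, -0.54 for Irf8, -1.01 for Mertk, -0.57 for Csf1r and -1.12 for Fcgr2b. The SD of the ratio in vehicle and at 30 µg/kg ran from 0.36 to 1.07 for the genes named. The smaller differences thus lie within the spread between libraries. So do some larger ones at 30 µg/kg, where the SD was 1.07 for Fcgr3, 0.80 for C1qa and 0.72 for Adgre1, and no test was made.

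Of 71 further myeloid genes, from lists of pathway members and cell markers, 64 were tested, and 3, 23 and 19 of them were called higher at 1, 10 and 30 µg/kg. At 30 µg/kg, 2 were called lower, among them Plcg2, a phospholipase of immune receptor signalling (-0.26 ± 0.09, SE, adjusted p = 0.0469, edgeR). The genes named here beyond the highest and lowest called of each list were chosen after their values had been seen. Rac2, a small GTPase of the phagocyte oxidase, rose at 30 µg/kg (log2 fold change 0.72 ± 0.23, SE), whereas Cyba, which other cells express too, had -0.02 ± 0.08 (adjusted p = 0.931). Csf1, the ligand of CSF1R, rose by 0.84 ± 0.16 at 10 µg/kg and 0.47 ± 0.16 at 30 µg/kg, and Il34, its second ligand, had -0.53 ± 0.22 at 30 µg/kg (adjusted p = 0.0986). Csf2rb, the common β receptor chain for GM-CSF, rose by 1.76 ± 0.23 at 30 µg/kg, while the ligand gene Csf2 had 0 counts in every library. Syk, a kinase downstream of Fc receptors, had 0.56 ± 0.20 at 30 µg/kg (adjusted p = 0.0509).

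Among further tissue macrophage genes, Cd86, a costimulatory ligand, had 1.19 ± 0.32, Cx3cr1, the fractalkine receptor, 0.70 ± 0.18 and Clec4n, dectin-2, 2.81 ± 0.74 at 30 µg/kg, each past the threshold. Cd5l, a secreted protein of macrophages, had 0 counts in 22 of 40 libraries and a highest count of 35, and its mean was 0.916 ± 0.875 CPM (SD, n = 5) at 30 µg/kg. The monocyte genes Ccr2 and Ly6c2 were not called at 10 µg/kg (0.59 ± 0.28 and 0.92 ± 0.43) or at 30 µg/kg (-0.31 ± 0.29 and 0.13 ± 0.44), whereas Chil3, Fn1 and Plac8 of the same list were called at both doses by edgeR. Chil3 was near the limit of detection, with 0 counts in 18 of 40 libraries and a highest count of 17. DESeq2 called 2 genes of this list higher at each of these doses.

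Markers of other cells were read in the same libraries. None of the tested T cell (10), NK cell (4), B cell (7), neutrophil (3) and mast cell (1) markers was called by edgeR at 1, 10 or 30 µg/kg. At an unadjusted p under 0.05 there were 0, 2 and 1 T cell markers, 1, 2 and 0 NK markers, 0, 0 and 1 B cell markers, 0, 1 and 1 neutrophil markers and no mast cell marker at these doses. DESeq2 called 1 T cell marker at 10 µg/kg and 1 neutrophil marker at 30 µg/kg. In its fit over the dose ranks, 3 of 10 T cell, 3 of 6 NK and 1 of 3 neutrophil markers with an adjusted p were called higher. No B cell or mast cell marker was called there, and 32 of 40 members were. The summed level of the 10 T cell markers was 6.43 to 10.4 CPM in vehicle, 8.50 to 11.8 at 10 µg/kg and 5.90 to 10.0 at 30 µg/kg. The 7 NK markers summed to 0.648 to 2.24 CPM in the vehicle group against 2.55 to 4.51 at 10 µg/kg, and the 10 neutrophil markers to 0.864 to 1.90 and 1.96 to 4.00, so both sums were higher in all 5 libraries at 10 µg/kg than in any vehicle library. At 30 µg/kg the neutrophil sum was 1.13 to 5.00 CPM, above all vehicle libraries in 4 of 5. Of the 10 neutrophil genes, Mpo had 0 counts in every library, Ly6g in 39 and Elane in 38 of 40. These zeros do not show that neutrophils were absent.

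Genes of other lists were called in the same comparisons. All 7 tested MHC class II genes were called higher at 1, 10 and 30 µg/kg, with sums of 274.8 to 315.6 CPM in the vehicle group against 480.9 to 1017 CPM at 1 µg/kg. Of 12 interferon-response genes, 4, 11 and 10 were called higher at these doses, and the sum was 94.8 to 115.9 CPM in the vehicle group against 241.9 to 294.2 CPM at 10 µg/kg. Endothelial markers were not called at 1 µg/kg (0 of 10, 2 at an unadjusted p under 0.05) but 8 and 7 of 10 were called at 10 and 30 µg/kg, and their summed level was 585.6 to 667.7 CPM in vehicle, 780.2 to 870.3 at 10 µg/kg and 802 to 907.6 at 30 µg/kg. Of 8 fibroblast markers, 2 and 3 were called at these doses. Of 5 fat markers only Ucp1 was called, at both doses (log2 fold changes of 2.72 ± 0.66 (SE) and 3.17 ± 0.67, adjusted p = 0.00945 and 0.000962, edgeR), and their summed level was 35.5 to 96.8 CPM in vehicle, 24.4 to 188.3 at 10 µg/kg and 107.5 to 260.5 at 30 µg/kg. All 5 libraries at 30 µg/kg lay above the vehicle range of that sum. Of 6 tubule markers none was called higher, while Slc34a1 was called lower at 10 and 30 µg/kg (log2 fold changes of -0.32 ± 0.09 (SE) and -0.55 ± 0.09, adjusted p = 0.0338 and 3.23e-05, edgeR) and Slc12a3 at 10 µg/kg. Their summed level had a median of 14380 CPM in vehicle, 12110 at 10 µg/kg and 11850 at 30 µg/kg. On the list of 6 red blood cell markers, Slc4a1 was called lower at 10 and 30 µg/kg. The summed level of that list was 482.2 to 771.9 CPM in vehicle and 386.8 to 584 CPM at 10 µg/kg. It ran from 120.6 to 1397 CPM at 30 µg/kg, so the groups overlap. The call of Slc4a1 is therefore not read as a change in blood. Whether any of these bears on the myeloid genes was not tested.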

How the data were processed

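Total RNA of frozen right kidneys was sequenced in 40 libraries. The authors deposited raw gene counts per library, with an unstranded and both stranded columns. FastQC 0.11.7, Trimmomatic 0.39, STAR 2.7.3a and DESeq2, and the builds GRCm39 and mm10, are named without their roles in the submitters' processing notes, so no coordinates are given for the counted genes. Promoter windows carry RefSeq's own coordinates. The unstranded counts were used, because the 2 stranded columns held nearly equal totals (48.96 to 49.65% in column 4). Reads assigned to no gene or to several were left out of library sizes (5.28 to 7.27% without a feature and 5.41 to 5.98% ambiguous).

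Libraries were assigned to doses from the labels. The main test was edgeR 4.0.16 in R 4.3.3 (limma 3.58.1): TMM factors (0.966 to 1.09), the edgeR filter on low counts, 1 robust quasi-likelihood fit of 8 groups without covariates, a prior count of 0.125 and Benjamini-Hochberg adjustment over 17345 genes. Log2 fold changes and SEs come from that fit. Symbols, exon lengths and overlaps came from the mouse gene annotation given, and promoters from RefSeq. The script was tested on simulated data. Alternatives were DESeq2 1.42.0, other scalings, no filter, stranded column 4 alone, a covariate for runs of sample numbers, the 2 groups alone and each library left out. The members and lists were chosen with earlier results of these data known. Values per library under vehicle and at 1, 10 and 30 µg/kg are given for 14 fixed members, the 3 highest and 3 lowest at 30 µg/kg, any member called lower, and up to 5 members called nowhere. Results for a few genes of the other lists are not reported here.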

Additional observations from a re-analysis of the deposited data

Results flagged for a closer look

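Among the named members, 12 of 168 groups of 5 libraries held a library whose gap to its neighbour exceeded 0.71 of the group's range, where chance alone flags about 1 in 20. At 30 µg/kg, Adgre1 was 13.8 CPM in replicate 2 (next 8.07) and Mrc1 was 9.17 CPM in replicate 5 (next 6.01). At 1 µg/kg, Tyrobp was 7.75 CPM in replicate 4 (next 4.77), Itgam 1.52 CPM in replicate 1 (next 0.726) and Fcgr2b 56.5 CPM in replicate 2, below the next at 60.8. At 0.3 µg/kg, Fcgr2b was 76.1 CPM in replicate 3 (next 64.3).

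At 0.1 µg/kg, replicate 1 held both flags, with C1qa at 20.9 CPM (next 12.9) and Ms4a7 at 2.02 CPM (next 0.862). At 0.03 µg/kg, Lyz2 was 30.5 CPM in replicate 5 (next 21), and replicate 2 was low for Ms4a7 at 0.255 CPM (next 0.993) and for Cd209a at 0.383 CPM (next 1.27). In vehicle, Cd209a was 2.29 CPM in replicate 3 (next 1.42).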

How the results depend on the processing

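Counts of called members stayed within 1.5 times in 87 of 96 alternatives other than leaving out 1 library. With stranded column 4 alone, 4 members were called at 1 µg/kg, 9 at 3 µg/kg and 0 between 3 and 10 µg/kg. That column holds 48.96 to 49.65% of the stranded counts, so these fits used fewer counts per gene. Without the 3 libraries that stood apart, 5 were called at 1 µg/kg and 1 between 10 and 30 µg/kg. DESeq2 called 7 between 0.3 and 1 µg/kg and 3 between 3 and 10 µg/kg. The last step also gave 0 with no filter and 5 with the 2 groups alone. The cause was not tested.

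Leaving out 1 library gave 5 to 12 calls at 1 µg/kg, 8 to 20 at 3 µg/kg, 27 to 28 at 10 µg/kg, 24 to 30 at 30 µg/kg, 0 to 6 between 0.3 and 1 µg/kg, 0 to 2 between 3 and 10 µg/kg and 0 to 1 between 10 and 30 µg/kg. Log2 fold changes at 30 µg/kg kept direction and side of the threshold in 156 of 168 such alternatives and 192 of 210 fits without 1 library. Csf1r ran from -0.31 to 0.02, turning to 0.01 without 30 µg/kg replicate 3 and 0.02 without vehicle replicate 4. No paired analysis was possible because the labels give no replicate numbers shared between groups. Itgam and Flt3, which are under about 1 CPM in vehicle, have SEs of 0.4 or more at 30 µg/kg.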
